A study of Homo sapiens with 12 samples.

Results

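Maspin is the product of SERPINB5, a member of clade B of the serpins, and the genes described here are SERPINB5 and 9 relatives: SERPINB1, SERPINB2, SERPINB3, SERPINB4, SERPINB6, SERPINB7, SERPINB8, SERPINB9 and SERPINB13. They were taken by gene symbol from the count tables, and all 10 were found among 38434 named genes. The clade has 13 genes in these tables, and the other 3 (SERPINB10, SERPINB11 and SERPINB12) are given for comparison. RNA was sequenced from LK-2 and RERF-LC-AI, both labelled as lung squamous cell carcinoma lines, in 12 libraries. LK2-maspin and LC-AI-maspin cells stably expressed maspin together with the green fluorescent protein ZsGreen from a lentiviral vector, and LK2-ctrl and LC-AI-ctrl cells stably expressed ZsGreen alone. Each of the 4 groups had 3 libraries. All of these cells, controls included, had been transduced with a lentivirus and selected with blasticidin, and each is a pool of the surviving clones. The sources used here do not say whether the 3 libraries of a group were grown apart, and the p-values therefore measure the spread between libraries of 1 pool, which may be technical.

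Total counts per library ran from 39802246 to 53148368 in LK2-maspin and from 44278486 to 54941357 in LK2-ctrl libraries, and from 50181666 to 65454432 in LC-AI-maspin and from 50143577 to 57558323 in LC-AI-ctrl libraries. Levels below are in CPM, counts scaled to the library total and within each line by TMM factors. The squamous label was only partly met by its markers. Of 12 squamous markers, 7 averaged at least 1 CPM in LK2-maspin and 5 in LK2-ctrl cells, with SOX2 and TP63 in both. In RERF-LC-AI cells only DSG3, DSC3 and PKP1 did so in either group, while SOX2, TP63, KRT5 and KRT14 stayed under 1 CPM. TP63 was near that limit in all groups. Its means were 1.14 CPM in LK2-maspin, 1.27 CPM in LK2-ctrl, 0.718 CPM in LC-AI-maspin and 0.596 CPM in LC-AI-ctrl cells.

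Serpins are proteins with an exposed reactive centre loop that a protease takes for a substrate. In inhibitory serpins the cut loop folds into the body of the molecule and the protease is trapped on it by a covalent bond. Clade B serpins lack a cleaved signal peptide and mostly stay inside the cell, where many of them guard it against its own lysosomal and granule proteases. Maspin is the member best known from cancer: its loop does not make this change, it is not regarded as a protease inhibitor, and it is found in the nucleus as well as the cytoplasm of epithelial cells. In human the genes lie in 2 clusters. SERPINB1, SERPINB9 and SERPINB6 are on chromosome 6 between bases 2832332 and 2972165, and SERPINB5, SERPINB13, SERPINB4, SERPINB3, SERPINB7, SERPINB2 and SERPINB8 are on chromosome 18 between bases 63476958 and 64019779 (GRCh38, GENCODE 44).

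The 10 genes can be told apart by their sequence, with the exception of a pair. SERPINB3 and SERPINB4 encode the squamous cell carcinoma antigens, and their coding sequences of 1173 bases (stop codon included) differ at 56 positions, an identity of 95.2%. Of the 1608 windows of 100 bases in each transcript, 57 (3.54%) were found unchanged in the other, whereas no such window of the other 8 members occurred in a second serpin transcript. Counts of SERPINB3 and SERPINB4 are therefore uncertain, and how many reads went to the wrong gene of the pair was not measured. The stretch from base 950 to base 1069 of both coding sequences, which holds the reactive centre loop region, carries 18 of the differences. It is shown here because it is where reads separate the pair best; capitals mark the differing bases.
SERPINB3: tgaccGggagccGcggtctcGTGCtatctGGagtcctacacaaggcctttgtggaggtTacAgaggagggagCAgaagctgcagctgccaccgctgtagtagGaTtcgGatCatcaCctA
SERPINB4: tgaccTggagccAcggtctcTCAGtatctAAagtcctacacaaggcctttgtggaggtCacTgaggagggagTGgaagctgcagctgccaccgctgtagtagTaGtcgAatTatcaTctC

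The 250 bases before the RefSeq start (GRCh38.p14) were read for 11 of the 13 genes. They are shown for the introduced gene, for the only member called lower (in RERF-LC-AI cells), and for the member with the largest uncalled difference. On chromosome 18 the SERPINB5 window is chr18:63476708-63476957 (plus strand) and the SERPINB2 window is chr18:63887455-63887704 (plus strand), and on chromosome 6 the SERPINB9 window is chr6:2903310-2903559 (minus strand). Capitals mark matches, on either strand, to the GC box (GGGCGG), the ETS core (CCGGAA), the AP-1 site (TGANTCA), the CAAT box (CCAAT) and the TATA box (TATAAA).
SERPINB5: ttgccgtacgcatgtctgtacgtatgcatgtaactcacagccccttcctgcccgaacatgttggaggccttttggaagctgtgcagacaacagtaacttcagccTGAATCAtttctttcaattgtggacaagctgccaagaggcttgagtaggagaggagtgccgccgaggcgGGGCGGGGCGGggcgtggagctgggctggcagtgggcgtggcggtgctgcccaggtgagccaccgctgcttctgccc
SERPINB9: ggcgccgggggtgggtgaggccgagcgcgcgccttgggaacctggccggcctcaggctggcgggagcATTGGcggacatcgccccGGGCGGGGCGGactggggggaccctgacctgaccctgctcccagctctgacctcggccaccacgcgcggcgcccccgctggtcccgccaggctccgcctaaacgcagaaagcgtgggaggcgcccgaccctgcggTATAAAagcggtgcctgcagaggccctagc
SERPINB2: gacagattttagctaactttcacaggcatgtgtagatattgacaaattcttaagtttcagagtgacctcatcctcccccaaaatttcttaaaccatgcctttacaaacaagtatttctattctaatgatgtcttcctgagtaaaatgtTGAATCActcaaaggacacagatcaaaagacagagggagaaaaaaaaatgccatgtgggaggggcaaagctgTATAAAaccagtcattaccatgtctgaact
The SERPINB5 window held 2 GC boxes, which overlap each other, and 1 AP-1 site, with no match to the ETS core. The SERPINB9 window held 2 overlapping GC boxes, 1 CAAT box and 1 TATA box, and the SERPINB2 window 1 AP-1 site and 1 TATA box. Over all 35116 RefSeq promoters of this length, 42.64% held a GC box, 6.573% an AP-1 site, 32.01% a CAAT box, 10.72% a TATA box and 14.53% an ETS core. GC content was 60% for SERPINB5, 74.4% for SERPINB9 and 37.2% for SERPINB2, against a median of 58% over all promoters. These matches are letters in a window and no measure of binding. The AP-1 pattern used is loose, since it allows any base in its middle, and both matches shown read TGAATCA. The RefSeq start of SERPINB2 used here lies inside its longer GENCODE gene.

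SERPINB5 was the gene that was introduced, so its level checks the labels. In LK2-maspin cells it had 2727, 2001 and 2255 counts (50.9, 50.7 and 48.4 CPM), against 96, 109 and 84 counts (2.02, 2.01 and 1.87 CPM) in LK2-ctrl cells. In LC-AI-maspin cells it had 26615, 30665 and 29124 counts (513, 480 and 438 CPM), against 14, 8 and 10 counts (0.271, 0.143 and 0.201 CPM) in LC-AI-ctrl cells. Every library matched its label, and no library of any group overlapped another group. The log2 fold change was 4.67 for LK-2 (SE 0.09, adjusted p = 1.61e-10) and 11.18 for RERF-LC-AI (SE 0.11, adjusted p = 5.61e-33), by edgeR's quasi-likelihood test with Benjamini-Hochberg adjustment over all genes tested. The difference between the lines was 6.52 on the log2 scale (SE 0.19, adjusted p = 3.22e-14), tested as an interaction over the 12 libraries.

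The larger fold change in RERF-LC-AI cells had both a higher level with the vector and a lower level without it. The 4 group means ran from 477 ± 37.9 CPM in LC-AI-maspin through 50.0 ± 1.39 CPM in LK2-maspin and 1.97 ± 0.0853 CPM in LK2-ctrl to 0.205 ± 0.0639 CPM in LC-AI-ctrl cells (SD, n = 3 each). The tables of the lines were made separately, so that this order across lines is a description. Ranked by counts among the 38434 genes, SERPINB5 was at place 239 to 332 in LC-AI-maspin against 22506 to 25127 in LC-AI-ctrl libraries, and at place 4634 to 4797 in LK2-maspin against 14759 to 15528 in LK2-ctrl libraries. The counts are per gene, so that vector-derived and endogenous SERPINB5 transcripts cannot be told apart, nor can a change in the cells that carry the vector and a change in RNA per cell.

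**Figure D1:**
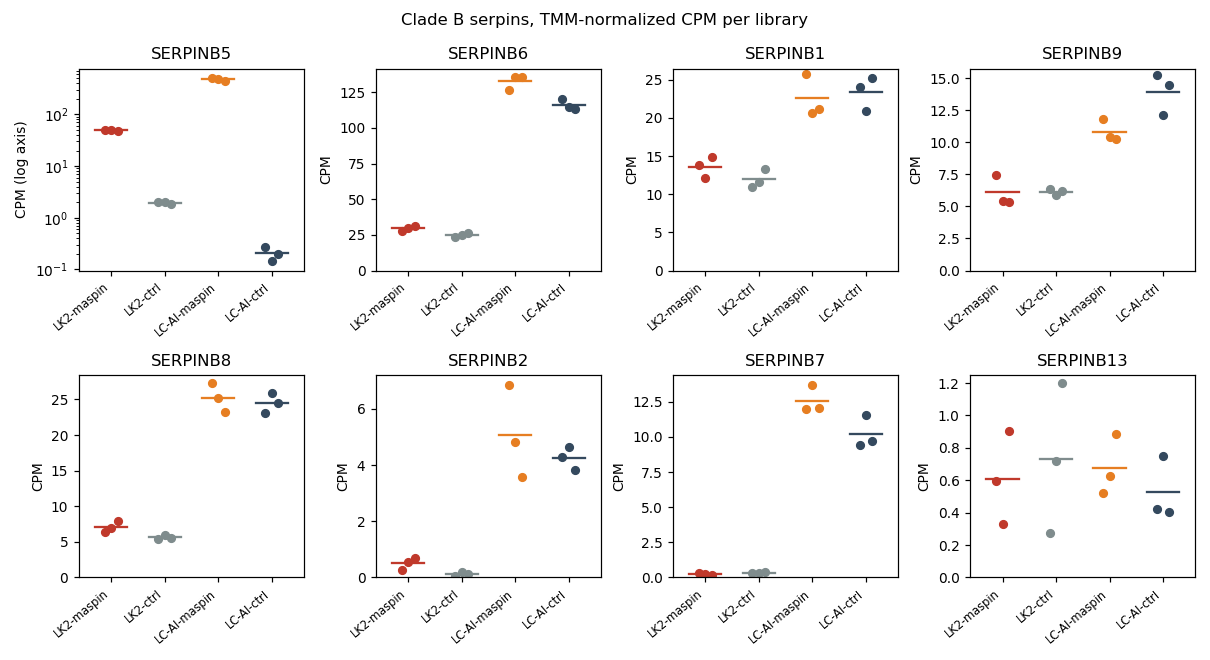
CPM (y axis, linear from 0, logarithmic for SERPINB5 alone) of the 8 members that could be tested, in LK2-maspin, LK2-ctrl, LC-AI-maspin and LC-AI-ctrl cells. Points are libraries and lines are means of 3. SERPINB5 stood at 48.4 to 50.9 CPM in LK2-maspin and at 438 to 513 CPM in LC-AI-maspin cells, and SERPINB9 was lower in all 3 LC-AI-maspin than in all 3 LC-AI-ctrl libraries.

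Maspin took a large share of the clade's counts once the vector was present. These shares are not scaled by gene length. SERPINB5 made up 44.8 ± 1.87% of the counts of all 13 clade B genes in LK2-maspin against 3.57 ± 0.335% in LK2-ctrl cells, and 69.1 ± 1.49% in LC-AI-maspin against 0.104 ± 0.0311% in LC-AI-ctrl cells (SD, n = 3 each). The other 12 genes summed to 61.6 ± 3.02 CPM in LK2-maspin against 53.3 ± 3.07 CPM in LK2-ctrl cells, and to 212 ± 2.47 CPM in LC-AI-maspin against 195 ± 2.82 CPM in LC-AI-ctrl cells. These sums did not overlap between maspin and ctrl libraries in either line, and SERPINB6 was the largest part of them in every library.

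**Figure D2:**
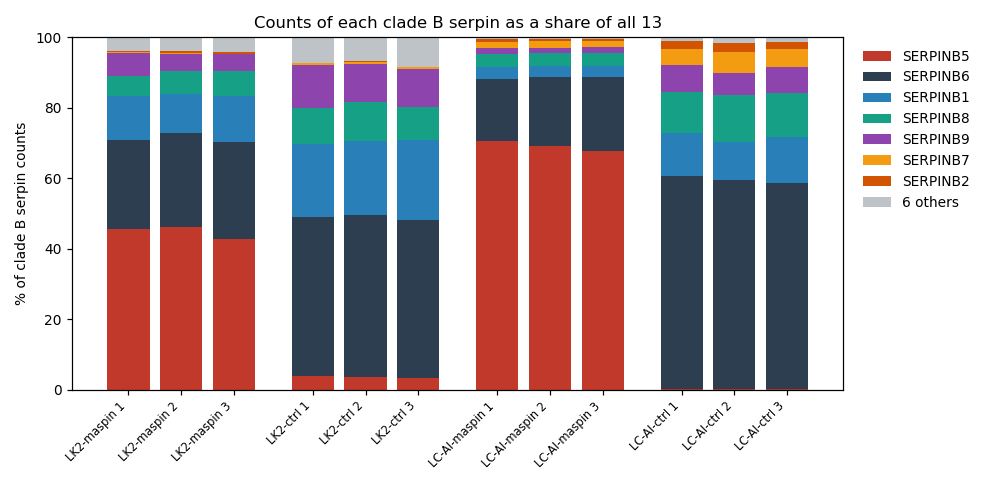
Counts of each clade B serpin as a percentage of the counts of all 13 (y axis), 1 bar per library, with the maspin libraries left of the ctrl libraries of the same line. SERPINB5 filled 42.7 to 46.1% of the LK2-maspin bars and 67.6 to 70.6% of the LC-AI-maspin bars, against 3.19 to 3.83% in LK2-ctrl and 0.0740 to 0.136% in LC-AI-ctrl libraries.

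Levels of different genes were compared per kb of the annotated mRNA. Without the vector, SERPINB6 was the highest clade B serpin in both lines, at 19.0 ± 0.940 CPM per kb in LK2-ctrl and 88.3 ± 2.70 CPM per kb in LC-AI-ctrl cells. SERPINB1 came next at 4.82 ± 0.506 CPM per kb in LK2-ctrl and 9.45 ± 0.907 CPM per kb in LC-AI-ctrl cells. SERPINB8 followed, at 1.70 ± 0.0979 and 7.39 ± 0.421 CPM per kb in LK2-ctrl and LC-AI-ctrl cells. In LK2-ctrl cells the ranges of SERPINB8 (1.63 to 1.81 CPM per kb) and SERPINB9 (1.41 to 1.53 CPM per kb) were adjacent without overlap. The order below SERPINB6 depended on the length used. Per kb of coding sequence, SERPINB9 averaged 5.44 ± 0.223 and SERPINB8 5.02 ± 0.290 CPM in LK2-ctrl cells. In LC-AI-ctrl cells SERPINB8 averaged 21.9 ± 1.25 and SERPINB1 20.6 ± 1.98 CPM per coding kb. The lines parted further down: SERPINB7 and SERPINB2 averaged 4.66 and 2.23 CPM per kb in LC-AI-ctrl cells and only 0.144 and 0.0630 CPM per kb in LK2-ctrl cells, whereas SERPINB5 averaged 0.0792 CPM per kb in LC-AI-ctrl and 0.760 CPM per kb in LK2-ctrl cells. With the vector, SERPINB5 stood at 184 ± 14.7 CPM per kb in LC-AI-maspin cells, above SERPINB6 at 101 ± 4.14 CPM per kb, and at 19.3 ± 0.539 CPM per kb in LK2-maspin cells, below SERPINB6 at 22.5 ± 1.30 CPM per kb. The LK2-maspin order turned when levels were taken per kb of coding sequence, with SERPINB5 at 44.5 ± 1.24 and SERPINB6 at 26.2 ± 1.52 CPM per coding kb (SD, n = 3). For SERPINB5 this scale uses the whole annotated mRNA of 2586 bases, of which 1125 are coding, and the sources used here do not say how much of the untranslated part the vector carries.

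**Figure D3:**
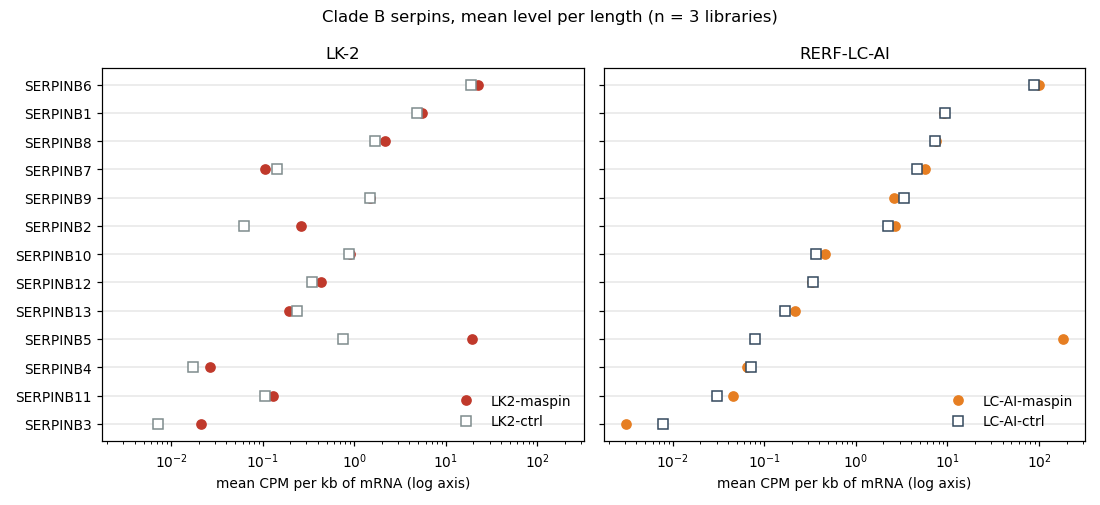
Mean CPM per kb of mRNA (x axis, logarithmic) of all 13 clade B serpins, 1 panel per line, with filled circles for maspin and open squares for ctrl cells. SERPINB6 was highest in both ctrl groups, and SERPINB5 is the gene with the widest gap between circle and square in both panels.

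The question for the remaining members was whether they moved when maspin was introduced. In LK-2 cells 8 of the 10 members had enough counts to be tested and SERPINB5 alone was called (adjusted p under 0.05), beside 0.533% of all 26270 genes tested (0.373% higher and 0.16% lower). For RERF-LC-AI 8 were tested and 4 were called, SERPINB5, SERPINB6 and SERPINB7 higher and SERPINB9 lower, beside 10.5% of 25197 genes (4.01% higher and 6.53% lower). Without SERPINB5, this left 3 of 7 for RERF-LC-AI and 0 of 7 for LK-2, where 3 had an unadjusted p under 0.05. DESeq2 called 0 of these 7 for LK-2, but it gave no adjusted p for SERPINB2, SERPINB7 and SERPINB13. For LK-2 the likelihood ratio test called SERPINB2 (adjusted p = 0.0389). With the replicate number as a block, SERPINB2 (0.0227) and SERPINB6 (0.00842) were called. The interaction called SERPINB5 alone of the 8 members, beside 1.76% of 28123 genes (0.402% higher and 1.35% lower), so that no other member was shown to differ between the lines by this test. The median log2 fold change of the 7 was 0.19 for LK-2 and 0.20 for RERF-LC-AI, against -0.001 and 0.01 over all genes tested. SERPINB3 and SERPINB4 passed the filter in no comparison.

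**Figure D4:**
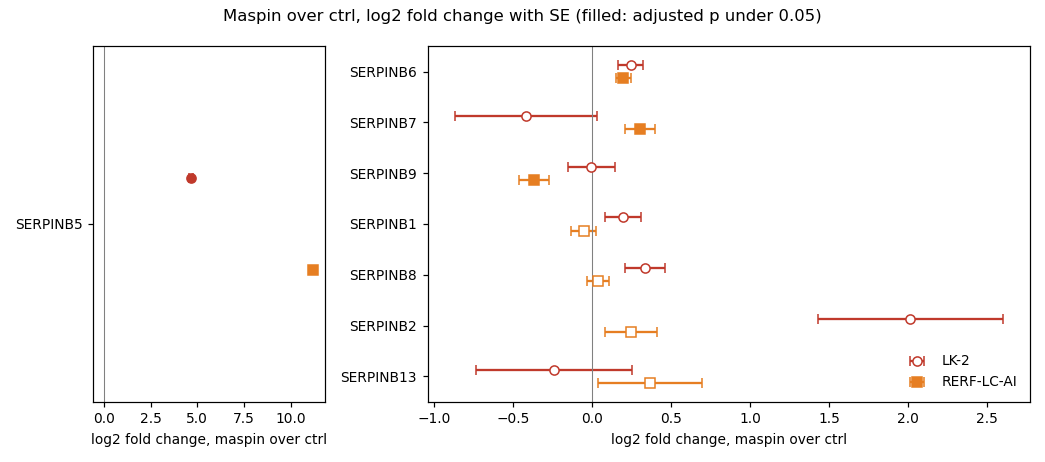
Log2 fold change (x axis, maspin over ctrl) with its SE for the 8 tested members in LK-2 (circles) and RERF-LC-AI cells (squares), filled where the adjusted p was under 0.05. SERPINB5 has a panel and a scale of its own, with SEs smaller than its symbols, and of the 7 others only SERPINB6, SERPINB7 and SERPINB9 in RERF-LC-AI cells are filled, at 0.20, 0.30 and -0.37.

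SERPINB6 inhibits cathepsin G and other serine proteases and is broadly expressed. It had 127, 136 and 136 CPM in LC-AI-maspin cells, against 120, 115 and 114 CPM in LC-AI-ctrl cells. The groups did not overlap, and on the log2 scale SERPINB6 rose by 0.20 (SE 0.05, adjusted p = 0.00636). In LK-2 cells it had 27.9, 29.5 and 31.4 CPM in LK2-maspin, against 23.8, 25.1 and 26.3 CPM in LK2-ctrl libraries. These groups did not overlap either and the fold change was similar in size, 0.24 (SE 0.08), but it missed the threshold (adjusted p = 0.440); with the replicate number as a block the adjusted p was 0.00842. The difference between the lines was -0.05 on the log2 scale (SE 0.09, adjusted p = 0.905).

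SERPINB9 is the inhibitor of granzyme B, the protease that cytotoxic lymphocytes deliver into target cells, and tumour cells that carry it are shielded from that attack. It fell in RERF-LC-AI cells, with 11.8, 10.4 and 10.2 CPM in LC-AI-maspin against 15.3, 12.2 and 14.5 CPM in LC-AI-ctrl libraries. On the log2 scale it fell by 0.37 (SE 0.09, adjusted p = 0.00780), and the highest LC-AI-maspin library lay just below the lowest LC-AI-ctrl library. In LK-2 cells the values overlapped, at 7.47, 5.42 and 5.37 CPM in LK2-maspin against 6.34, 5.85 and 6.20 CPM in LK2-ctrl libraries (log2 fold change -0.01, SE 0.15, adjusted p = 0.9999). The difference between the lines, -0.36 (SE 0.18), was not called (adjusted p = 0.424).

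SERPINB7, or megsin, was described in kidney mesangial cells and is a protein of the upper epidermis. It had 12.01, 13.70 and 12.05 CPM in LC-AI-maspin, against 9.40, 11.5 and 9.73 CPM in LC-AI-ctrl libraries. The groups did not overlap, and SERPINB7 rose by 0.30 on the log2 scale (SE 0.09, adjusted p = 0.0379). In LK-2 cells it was near the limit of detection, with 16, 9 and 8 counts in LK2-maspin and 14, 16 and 16 counts in LK2-ctrl libraries (-0.42, SE 0.45, adjusted p = 0.9999).

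The calls of SERPINB6, SERPINB7 and SERPINB9 in RERF-LC-AI cells were not kept in every fit that leaves out a library. Such a fit also has fewer libraries to test with. All 3 genes lost their calls without LC-AI-maspin replicate 3 (adjusted p = 0.0675, 0.0650 and 0.0612). Without LC-AI-maspin replicate 2, SERPINB7 (0.211) and SERPINB9 (0.0587) lost theirs. Without LC-AI-ctrl replicate 3, SERPINB6 (0.0691) and SERPINB7 (0.167) lost theirs, and without LC-AI-ctrl replicate 1 SERPINB7 did (0.135). All 3 directions were kept in each of these fits. When all 12 libraries shared 1 estimate of the spread, the adjusted p was 0.0854 for SERPINB6, 0.204 for SERPINB7 and 0.110 for SERPINB9.

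**Figure D5:**
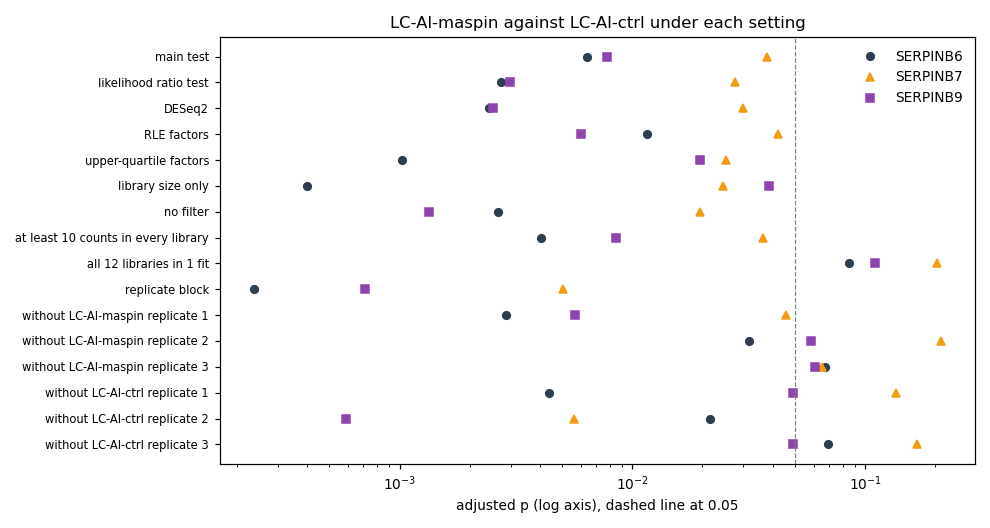
Adjusted p (x axis, logarithmic, dashed line at 0.05) of SERPINB6, SERPINB7 and SERPINB9 for LC-AI-maspin against LC-AI-ctrl under each way of running the test (y axis). Points right of the line occur in the fit over all 12 libraries and in 4 of the 6 fits that leave out a library.

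SERPINB2 inhibits urokinase and tissue plasminogen activator and is best known from monocytes and keratinocytes. In LK-2 cells it had 14, 22 and 32 counts in LK2-maspin, against 2, 10 and 6 counts in LK2-ctrl libraries, or 0.261, 0.557 and 0.687 CPM against 0.0420, 0.185 and 0.133 CPM. Most counts may hold both mates of a read pair, so that these low counts would stand for fewer RNA fragments. The groups did not overlap and the log2 fold change was 2.01 (SE 0.59), the largest among the members after SERPINB5, yet it was not called (adjusted p = 0.332). It passed the threshold with edgeR's likelihood ratio test (adjusted p = 0.0389) and with the replicate block (0.0227). In RERF-LC-AI cells, where its level was higher, it had 6.85, 4.83 and 3.58 CPM in LC-AI-maspin against 4.29, 4.65 and 3.81 CPM in LC-AI-ctrl libraries. Those groups overlapped (0.25, SE 0.16, adjusted p = 0.437). The difference between the lines was -1.73 (SE 0.55, adjusted p = 0.135), and it was called by the likelihood ratio test (0.0182), by DESeq2 (0.00978), with the block (0.00300) and without LK2-maspin replicate 1 (0.0374).

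SERPINB8 inhibits furin, the convertase that activates many secreted proteins. It had 6.37, 6.94 and 7.99 CPM in LK2-maspin, against 5.40, 6.00 and 5.49 CPM in LK2-ctrl libraries. The groups did not overlap, but the log2 fold change of 0.33 (SE 0.13) was not called (adjusted p = 0.630). In the other line it ran from 23.2 to 27.3 CPM in LC-AI-maspin and from 23.1 to 25.9 CPM in LC-AI-ctrl libraries (0.04, SE 0.07, adjusted p = 0.836). Counting by overlap alone, SERPINB2, SERPINB6 and SERPINB8 of the 7 tested members other than SERPINB5 were separated upwards in LK-2 cells, and none downwards. Among all genes tested there, 6.37% were separated upwards and 5.53% downwards. Of the same 7 in RERF-LC-AI cells, SERPINB6 and SERPINB7 were separated upwards and SERPINB9 downwards. There 11.9% of genes were separated upwards and 13.2% downwards. The introduced SERPINB5 was separated upwards in both lines.

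SERPINB1 inhibits neutrophil elastase, cathepsin G and proteinase 3. It ran from 12.2 to 14.8 CPM in LK2-maspin and from 10.9 to 13.3 CPM in LK2-ctrl libraries (0.19, SE 0.11, adjusted p = 0.906), and from 20.7 to 25.7 CPM in LC-AI-maspin and from 20.9 to 25.3 CPM in LC-AI-ctrl libraries (-0.06, SE 0.08, adjusted p = 0.780). The groups overlapped in both lines.

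SERPINB13, SERPINB3 and SERPINB4 are genes of stratified squamous epithelium, and SERPINB13 and SERPINB3 inhibit cysteine cathepsins. SERPINB13 had 13 to 42 counts in LK2-maspin and 13 to 54 counts in LK2-ctrl libraries, and 27 to 59 counts in LC-AI-maspin and 20 to 42 counts in LC-AI-ctrl libraries. It was called in neither line (LK-2: -0.24, SE 0.49, adjusted p = 0.9999; RERF-LC-AI: 0.37, SE 0.33, adjusted p = 0.601). SERPINB3 had 0, 0 and 5 counts in LK2-maspin against 0, 2 and 0 in LK2-ctrl libraries, and 0, 1 and 0 in LC-AI-maspin against 0, 0 and 2 in LC-AI-ctrl libraries. SERPINB4 had 5, 0 and 2 counts in LK2-maspin against 0, 0 and 4 in LK2-ctrl libraries, and 2, 9 and 10 in LC-AI-maspin against 2, 16 and 2 in LC-AI-ctrl libraries. At this depth no difference between the groups was detectable for the squamous cell carcinoma antigens. SERPINB11 lies across SERPINB3 on the other strand, and the sources used here do not say whether the counting used strand.

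The 3 other clade B genes were low and were not called where they could be tested. SERPINB10 averaged 1.93 CPM in LK2-maspin and 1.90 CPM in LK2-ctrl cells, and 0.996 CPM in LC-AI-maspin and 0.796 CPM in LC-AI-ctrl cells. SERPINB12 averaged 1.63 CPM in LK2-maspin and 1.28 CPM in LK2-ctrl cells, without overlap (0.34, SE 0.21, adjusted p = 0.915), and 1.25 CPM in LC-AI-maspin and 1.27 CPM in LC-AI-ctrl cells. SERPINB11 had 0 to 20 counts in any library and was tested in LK-2 cells only (0.26, SE 0.84).

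The genes around the members were looked at next, where 0.533% of all genes tested were called for LK-2 and 10.5% for RERF-LC-AI. Within 1 Mb of SERPINB5 lie 19 named genes, 10 of them clade B serpins. Of the others, none of the 8 tested in LK-2 cells and 1 of the 7 tested in RERF-LC-AI cells was called: HMSD, whose gene overlaps SERPINB8 on the same strand (0.33, SE 0.11, adjusted p = 0.0467). Around the chromosome 6 cluster none of 17 was called for LK-2 and 1 of 18 for RERF-LC-AI, PSMG4, a proteasome assembly chaperone (0.20, SE 0.06, adjusted p = 0.0395). Leaving out a library ended the HMSD call in each of the 6 cases (adjusted p 0.0515 to 0.191) and the PSMG4 call without LC-AI-maspin replicate 1 (0.0863) or 3 (0.262) and without LC-AI-ctrl replicate 2 (0.149) or 3 (0.133).

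The serpins of the other clades include extracellular protease inhibitors and a collagen chaperone. Of 22, 13 could be tested in LK-2 cells and 0 were called, with 1 at an unadjusted p under 0.05 and 1 called by DESeq2. In RERF-LC-AI cells SERPINH1, the collagen chaperone, was lower, at 272 ± 4.47 CPM in LC-AI-maspin and 325 ± 16.9 CPM in LC-AI-ctrl cells (-0.26, SE 0.05, adjusted p = 2.79e-04; SD, n = 3). The medians over the lists were 0.10 for LK-2 and 0.05 for RERF-LC-AI. Among all genes tested, 0.533% were called for LK-2 and 10.5% for RERF-LC-AI.

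Of 20 proteases that clade B serpins inhibit, 14 were tested in each line. Granzyme B (GZMB), the target of SERPINB9, rose in LK-2 cells, at 16.5 ± 2.24 CPM in LK2-maspin and 9.31 ± 1.11 CPM in LK2-ctrl cells (0.83, SE 0.13, adjusted p = 0.0121). It lost the call without LK2-maspin replicate 2 (0.106) or 3 (0.0537) and without LK2-ctrl replicate 2 (0.118). In RERF-LC-AI cells GZMB was too low to be tested, at 0.0386 to 0.150 CPM in LC-AI-maspin and 0 to 0.0802 CPM in LC-AI-ctrl libraries. FURIN, the target of SERPINB8, fell in RERF-LC-AI cells, at 77.5 ± 1.70 CPM in LC-AI-maspin and 88.0 ± 1.67 CPM in LC-AI-ctrl cells (-0.18, SE 0.05, adjusted p = 0.0104), and lost the call without LC-AI-maspin replicate 1 (0.0546) or 3 (0.0526). The list medians were -0.04 for LK-2 and -0.11 for RERF-LC-AI.

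Among 13 partners and regulators of maspin, all tested in both lines, ETS1 moved in opposite directions. ETS1 is a transcription factor of the ETS family, for which the maspin promoter is known to have sites. It was higher in LK-2 cells, at 17.8 ± 2.89 CPM in LK2-maspin and 7.28 ± 1.79 CPM in LK2-ctrl cells (1.29, SE 0.17, adjusted p = 0.00530), and lower in RERF-LC-AI cells, at 340 ± 18.9 CPM in LC-AI-maspin and 423 ± 6.79 CPM in LC-AI-ctrl cells (-0.31, SE 0.05, adjusted p = 2.27e-05; SD, n = 3). The difference between the lines was -1.61 (SE 0.16, adjusted p = 1.81e-05). The LK-2 call was lost without LK2-ctrl replicate 2 (0.0605). HDAC1, a histone deacetylase that maspin is reported to bind, was lower in RERF-LC-AI cells, at 135 to 144 CPM in LC-AI-maspin and 152 to 157 CPM in LC-AI-ctrl libraries (-0.15, SE 0.05, adjusted p = 0.0372), and kept its call in 1 of the 6 fits that leave out a library (adjusted p 0.0548 to 0.196 in the other 5). The list medians were -0.04 for LK-2 and -0.01 for RERF-LC-AI.

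The gene whose pattern over the 4 group means lay nearest to that of SERPINB5 was CLVS2, which encodes clavesin, a lipid-binding protein of neurons. Its centred log2 means differed from those of SERPINB5 by a root mean square of 2.88, followed by MIR3190 at 3.30 and LOC101927711 at 3.39, among 28123 genes. None is close on this scale. The nearest clade B serpin was SERPINB13 at 4.12. CLVS2 rose in RERF-LC-AI cells, at 15.5 ± 1.57 CPM in LC-AI-maspin and 0.912 ± 0.122 CPM in LC-AI-ctrl cells (4.08, SE 0.13, adjusted p = 5.24e-19), and was at 1.99 ± 0.547 CPM in LK2-maspin and 1.13 ± 0.147 CPM in LK2-ctrl cells without a call (0.82, SE 0.24, adjusted p = 0.332; SD, n = 3). MIR3190 and LOC101927711 stayed under 1 CPM in every library.

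Of the cell type markers, at most 1 per list was called in a line. The share over all genes tested was 0.533% for LK-2 and 10.5% for RERF-LC-AI. Of 8 squamous markers tested in RERF-LC-AI cells, 0 were called. In LK-2 cells the 12 squamous markers summed to 487 to 545 CPM in LK2-maspin and 594 to 640 CPM in LK2-ctrl libraries, with KRT14 at 0 in LK2-maspin and KRT16 at 0 in LK2-ctrl cells, and 1 of 10 tested was called: KRT5, at 7.44 ± 1.74 CPM in LK2-maspin and 0.780 ± 0.198 CPM in LK2-ctrl cells (3.25, SE 0.23, adjusted p = 4.65e-05). Most of that sum was SOX2, at 428 ± 35.5 CPM in LK2-maspin and 537 ± 23.1 CPM in LK2-ctrl cells (-0.33, SE 0.07, adjusted p = 0.0756). Of the 10 tested, 6 had a log2 fold change above 0, among them KRT6A (0.96, adjusted p = 0.138), KRT6B (2.57, adjusted p = 0.146) and DSG3 (0.57, adjusted p = 0.438), and DESeq2 called 2 higher and 1 lower. SOX2, KRT6A, KRT6B and DSG3 are named here after their values were seen. Among LC-AI libraries the 7 lung glandular markers summed to 160 to 169 CPM in LC-AI-maspin and 208 to 231 CPM in LC-AI-ctrl libraries, and KRT7 alone of 5 tested was called (-0.44, SE 0.05, adjusted p = 1.57e-07). The 8 fibroblast markers summed to 54.8 to 63.2 CPM in LC-AI-maspin and 64.6 to 88.6 CPM in LC-AI-ctrl libraries, with COL1A2 alone of 7 called (-0.96, SE 0.11, adjusted p = 2.64e-07). The 6 neuroendocrine markers summed to 8.38 to 8.85 CPM in LC-AI-maspin and 6.58 to 8.43 CPM in LC-AI-ctrl libraries, with NCAM1 alone of 5 called (0.49, SE 0.16, adjusted p = 0.0485), a call lost without LC-AI-maspin replicate 1 (0.231) or 2 (0.173) and without LC-AI-ctrl replicate 3 (0.248). The leukocyte and endothelial lists had 0 calls in either line, with 0 to 2 genes at an unadjusted p under 0.05 and 0 calls by DESeq2. In LK-2 cells the neuroendocrine markers summed to 32.6 to 34.4 CPM in LK2-maspin and 38.1 to 41.1 CPM in LK2-ctrl libraries. The lung glandular markers summed to 8.87 to 10.4 CPM in LK2-maspin and 11.2 to 12.2 CPM in LK2-ctrl libraries. There 0 of 6 neuroendocrine and 0 of 3 glandular markers tested were called, with 1 and 2 at an unadjusted p under 0.05. Of 8 fibroblast markers 0 were called in LK-2 cells, against 1 by DESeq2. The part of the cell type markers in the differences of SERPINB6, SERPINB7 and SERPINB9 was not tested.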

How the data were processed

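Poly(A) RNA was sequenced in 12 libraries. Trimmomatic 0.39 was used by the authors to clean the reads, and they aligned them with BWA 0.7.17 to GRCh38.p13 (SAMtools 1.12 for LK-2, SAMtools 1.10 for RERF-LC-AI cells) and deposited 1 table of read counts per gene for each line. The sources used here name no counting tool or strand setting. The deposited signal columns, which the authors scaled by library total or by TMM in edgeR 3.16.5, were not used. Among counts from 1 to 9, 23.88 to 26.19% were odd, as when most counts hold both mates. Rows without a gene symbol (646 in each table, 0.292 to 0.416% of counts) were left out.

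Named genes passing edgeR's filter (minimum count 10, minimum total 15) were fitted within each line by quasi-likelihood (edgeR 4.0.16, R 4.3.3) with TMM factors, and the difference between lines by an interaction over 12 libraries. P-values were adjusted by Benjamini-Hochberg over all genes tested, and a gene with an adjusted p under 0.05 was called. The SE is the log2 fold change divided by the root of the test's F. The code was tested on simulated data. Alternatives were edgeR's likelihood ratio test, DESeq2 1.42.0, other factors, other filters, 1 fit over 12 libraries, the replicate number as a block, a threshold of 0.01 and leaving out each library. Lengths came from GENCODE 44 and promoters from RefSeq (GRCh38.p14). Named were all clade B serpins, up to 4 called genes of each list, called genes within 1 Mb, and the 3 genes nearest to SERPINB5 in pattern. A result for a gene of the lists is not reported here. Members and lists were chosen with earlier results of these data known. No library was a copy of another: between replicates, chi-square over its degrees of freedom was 4.70 to 26.5.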

Additional observations from a re-analysis of the deposited data

Results flagged for a closer look

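For SERPINB5 the log2 fold change of maspin over ctrl differed between the lines by 6.52 (RERF-LC-AI minus LK-2, adjusted p = 3.22e-14). SERPINB5 was the introduced gene, so that this value describes its levels with and without introduced maspin and not a response to maspin. The log2 fold change differed by 3.26 for CLVS2 (adjusted p = 8.02e-07) and by -1.61 for ETS1 (adjusted p = 1.81e-05). Each was tested by the interaction. All 3 differences were called in each of the alternatives that could test them. SERPINB5 was not among the genes tested when at least 10 counts were required in every library, since LC-AI-ctrl replicate 2 had 8. PSMG4 lay lower in all LK2-maspin than in all LK2-ctrl libraries (means 60.2 and 65.4 CPM). It lay higher in all LC-AI-maspin than in all LC-AI-ctrl libraries (means 33.2 and 28.9 CPM). Its difference of 0.32 (SE 0.09) was not called by the interaction test (adjusted p = 0.112). Flags were looked for only among the genes named by the rule given above, so that other genes of the lists can differ between the lines too.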

How the results depend on the processing

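SERPINB5 was called in both lines and in the interaction under every alternative that tested it. In LK-2 cells the members called were 1, against 2 by the likelihood ratio test and 1 in each fit without a library. In RERF-LC-AI cells they were 4, against 1 with all 12 libraries in 1 fit and 1 to 4 without a library. In the interaction they were 1, against 2 by the likelihood ratio test, 2 by DESeq2, 0 with at least 10 counts in every library (2 had an unadjusted p under 0.05) and 1 to 2 without a library. Over all genes, calls in LK-2 cells were 140, against 314 by the likelihood ratio test, 280 by DESeq2, 251 in 1 fit, 70 at 0.01 and 50 to 199 without a library. In RERF-LC-AI cells they were 2655, against 1163 in 1 fit, 1642 at 0.01 and 1764 to 2594 without a library, and in the interaction 494, against 884 by the likelihood ratio test, 985 by DESeq2, 196 at 0.01 and 275 to 754 without a library.

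The labels do not say that a replicate number marks a shared culture or day, and the samples were treated as unpaired because not every same-number correlation passed 0.1: deviations from the group means correlated over genes by 0.294, 0.0368 and 0.313 for numbers 1 to 3 in LK-2 and by 0.115, 0.130 and 0.0462 in RERF-LC-AI cells, and 5 of the 6 maspin and ctrl pairs with the same number, all but number 2 of LK-2, were the best match for both. That is a hint of pairing from the data, not from the design. With the replicate block, 3 members were called in LK-2 cells, 4 in RERF-LC-AI cells and 2 in the interaction, and 1190, 4081 and 2273 genes in all.

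Only log2 fold changes that were not called changed sign. In LK-2 cells SERPINB9 was 0.00268 with library size only and -0.18 to 0.078 without a library, and SERPINB13 was -0.63 to 0.29 without a library. In RERF-LC-AI cells leaving out a library gave SERPINB2 -0.016 to 0.45, SERPINB8 -0.018 to 0.094 and SERPINB1 -0.16 to 0.00366. The cause of these shifts was not tested. In 1 fit over all 12 libraries the RERF-LC-AI calls of ETS1 (adjusted p = 0.112), SERPINH1 (0.1003), FURIN (0.255), HDAC1 (0.198), NCAM1 (0.101), HMSD (0.288) and PSMG4 (0.133) were also lost. HDAC1 also lost its call with upper-quartile factors (0.0545), library size only (0.0511) and no filter (0.0530), NCAM1 with at least 10 counts in every library (0.0548), and HMSD with RLE factors (0.0502), no filter (0.0575) and at least 10 counts in every library (0.0506). These repeats for genes other than the members were added after seeing the data. Depth limits SERPINB3 and SERPINB4, and SERPINB2 and SERPINB7 in LK-2 cells, which had at most 32 counts in a library.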
